A study of Mus musculus with 31 samples.

Results

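Collagens, laminins and integrins were followed as 1 group of matrix genes and matrix receptors across a panel of recombinant inbred mice. Members were the genes on the array with a symbol of Col, a number, a and a number, or a symbol starting with Lama, Lamb, Lamc, Itga or Itgb, taken only from probes that name a single gene. This gave 76 genes on 86 probes, out of 15096 genes on 16874 probes with a single gene name and 23040 probes in all. They comprise 11 fibrillar collagens, 6 type IV collagens, 23 other collagens, 10 laminin chains, 15 integrin alpha chains, 8 integrin beta chains and 3 proteins named for binding an integrin beta chain. The probes of a gene were averaged, which concerned 7 members, while 69 members had 1 probe.

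Collagens are triple helices of 3 chains. Fibrillar collagens pack into the cables that give connective tissue its strength, while type IV collagen forms the sheet-like network of basement membranes, on which epithelia and blood vessels rest. Laminins are heterotrimers of an alpha, a beta and a gamma chain that polymerise in the same basement membranes. Integrins are cell surface heterodimers of an alpha and a beta chain that hold cells to collagen, laminin and other ligands and link them to the actin cytoskeleton. In the kidney, the filter of the glomerulus rests on a network of type IV collagen and laminin, and loss of its collagen chains causes Alport syndrome.

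Each of 31 BXD strains, whose founders were the inbred parents C57BL/6J and DBA/2J, contributed 1 spotted glass array on which its RNA, pooled from 3 male mice aged 8 weeks and labelled with Alexa Fluor 647, was set against C57BL/6J reference RNA labelled with Alexa Fluor 555. All strains were thus untreated mice compared with 1 inbred parent, with no DBA/2J array used here and no dye swap. The tissue is kidney in the titles but whole brain in the source fields, a conflict that stands here. The values are log2 ratios, most likely of strain over reference, so they show no level of a gene. The direction is not stated, and if it were the other way, every higher or lower call below would turn over. Ratios cannot show whether a marker of a tissue is present. Over strains, the SD of 11 proximal tubule markers had a median of 0.577, against 0.302 for 10 neuron markers, 0.263 for 9 glial markers and 0.358 for all genes. The other kidney lists lay under that of all genes, at 0.321 for 8 podocyte markers and 0.344 for 8 collecting duct markers.

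The 24 strains BXD1-32 and the 7 strains BXD33-42 are treated below as 2 breeding sets, a division that is background knowledge and not in the labels. Correlations between arrays ran from -0.0926 to 0.808, and the first principal component held 20.6% of the variance. Arrays fell into clusters of 6, 9, 4 and 10 arrays, with BXD15 and BXD38 apart from all of them. With 1 array a strain, an effect of the strain cannot be told apart from one of its array, and p-values measure the spread between these arrays. A mean ratio shared by the whole panel holds strain, dye and reference effects together. In pooled tissue RNA, fewer cells of a type and less RNA per cell cannot be told apart either.

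Members differed from the reference about as often as other genes did. With limma and Benjamini-Hochberg adjustment over all 15096 genes, 17 members were higher and 22 lower than C57BL/6J at an adjusted p under 0.05, and 37 did not pass. That is 51.3% of the members, beside 55.8% of all genes (26.5% higher and 29.3% lower), so the count is not a result about matrix genes. By class, the called share ran from 33.3% of the integrin-binding proteins to 54.5% of the fibrillar collagens. The median of the members' mean log2 ratios was -0.019, beside -0.013 for all genes. A mean of at least 0.5 in size together with a pass was found for 5 of 76 members, which were Col27a1, Col7a1, Col25a1, Col11a2 and Itgb5, and for 9.87% of all genes.

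**Figure D1:**
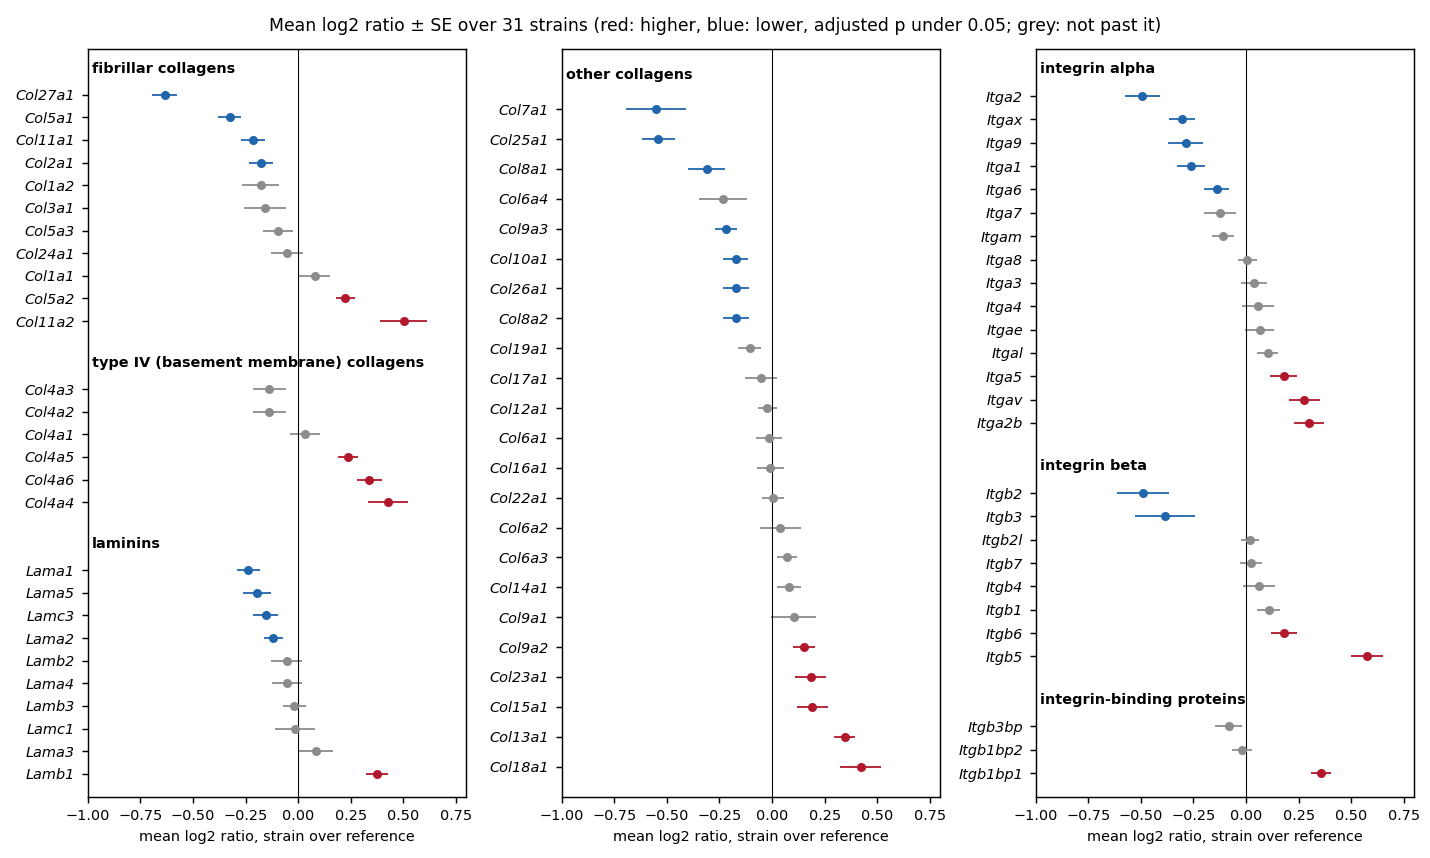
Mean log2 ratio of strain over C57BL/6J for the 76 members, with its standard error over 31 strains, by class; red genes were higher and blue genes lower at an adjusted p under 0.05 (limma), and grey genes did not pass. Means run from -0.63 for Col27a1 to 0.58 for Itgb5, and every class holds genes on both sides of 0.

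Among the 11 fibrillar collagens, 4 were lower than the reference, 2 were higher and 5 did not pass, with a median mean of -0.16. Col27a1, a fibrillar collagen of cartilage and other tissues, had values from -1.43 in BXD2 through a median of -0.56 to -0.12 in BXD38. It was below 0 in all 31 strains, and its mean of -0.63 ± 0.061 (SE, n = 31) was the lowest of any member (limma adjusted p = 3.53e-10).

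Col5a1, a chain of the type V collagen that nucleates and thins collagen fibrils, ranged from -1.09 in BXD12 to 0.24 in BXD15 with a median of -0.28. Its mean was -0.32 ± 0.055 (limma adjusted p = 7.29e-06), and only 3 of 31 strains lay above 0. The companion chain Col5a2 went the other way, from -0.13 in BXD1 through a median of 0.17 to 1.02 in BXD24, with a mean of 0.22 ± 0.046 (limma adjusted p = 1.03e-04). A chain found in some type V trimers, Col5a3, had a mean of -0.096 ± 0.072 and did not pass. The 3 chains of this 1 collagen type therefore had means on both sides of the reference.

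The type XI chains, which sit inside cartilage fibrils, were split in the same way. Col11a2 had values from -0.90 in BXD31 through a median of 0.49 to 2.72 in BXD13, the highest value of any fibrillar collagen, and a mean of 0.50 ± 0.110 (limma adjusted p = 2.54e-04). It was above 0 in 26 of 31 strains. Col11a1 had a mean of -0.22 ± 0.057 and was above 0 in 4 strains, but its 2 probes disagreed in direction, as given further on. Col2a1, the main collagen of cartilage, had a mean of -0.18 ± 0.056 (limma adjusted p = 0.00749), which became 0.038 and lost its call when the mean of spots at the same place in the array's repeat of 480 spots was taken out.

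The abundant collagens of connective tissue did not pass. Col1a1 and Col1a2, the 2 chains of type I collagen, had means of 0.078 ± 0.073 and -0.18 ± 0.087, and their strain values ran from -1.03 in BXD36 to 1.09 in BXD11 and from -1.69 in BXD31 to 1.05 in BXD14. Col3a1, which forms type III collagen alone, had a mean of -0.16 ± 0.101, and Col24a1, a minor fibrillar collagen, one of -0.054 ± 0.076. Col3a1 had a wide spread all the same, from -1.45 in BXD42 to 1.08 in BXD14, and its SD of 0.593 exceeded that of 87.6% of genes.

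None of the 6 type IV collagens was lower than the reference, 3 were higher and 3 did not pass, with a median mean of 0.14. The called share was thus 50%, beside 54.5% of the fibrillar collagens and 55.8% of all genes (26.5% higher and 29.3% lower). At an unadjusted p under 0.05 the count of lower chains by limma was also 0. Col4a4, a chain of the mature glomerular network, ranged from -0.71 in BXD39 through a median of 0.30 to 2.36 in BXD20, with the next highest strain at 1.08. Its mean was 0.43 ± 0.095 (limma adjusted p = 2.83e-04), and 25 of 31 strains were above 0. Col4a6, found in the basement membranes of smooth muscle and of Bowman's capsule, had a mean of 0.34 ± 0.059 (limma adjusted p = 1.32e-05) and reached 1.39 in BXD22. Col4a5, the X-linked Alport chain, had a mean of 0.24 ± 0.049 (limma adjusted p = 1.17e-04) and the narrowest spread of the 6, from -0.38 in BXD34 to 0.80 in BXD24.

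The remaining type IV chains did not pass. Col4a3, the partner of Col4a4 and Col4a5 in the glomerular network, had a mean of -0.14 ± 0.079, with values from -1.36 in BXD6 to 0.58 in BXD38. Col4a1 and Col4a2, which make the type IV trimer found in nearly all basement membranes, had means of 0.033 ± 0.072 and -0.14 ± 0.078. With the spot position taken out, Col4a1 had a mean of 0.26 and passed. In all, 2 of the 3 chains of the glomerular trimer were higher, while the chains of the common trimer were not called.

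Col4a1 and Col4a2 are a head-to-head pair in the mouse genome, read in opposite directions. In RefSeq's GRCm38.p6, Col4a2 starts at the left end of chr8:11312805-11312826 and runs right on the plus strand, while Col4a1 starts at its right end and runs left on the minus strand. The first 22 bases of the annotated transcripts therefore overlap, and this stretch is shown because both genes begin in it.
Overlap of the Col4a2 and Col4a1 starts, plus strand: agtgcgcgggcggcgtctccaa
The promoter windows of 250 bases before to 50 bases after each start share 78 bases. Across strains the ratios of the pair correlated with Pearson's r = 0.498 and Spearman's rho = 0.593. The permutation p adjusted over 56 pairs was 0.0724 for r and 0.0108 for rho, so the pair passed by ranks and not by r. Without BXD15 and BXD38, r was 0.493 and passed (permutation test, adjusted p = 0.0486). BXD8 lies away from the rest, with Col4a1 at -0.11 and Col4a2 at 1.30. Within the array clusters of 6, 9 and 10 arrays r was 0.917, 0.806 and 0.386, with the first principal component removed it was 0.497, and with spot position removed 0.286.

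Set side by side, the mean of the 6 type IV collagens exceeded that of the 11 fibrillar collagens in 28 of 31 strains. The fibrillar mean was -0.094 ± 0.179 (SD, n = 31), from -0.49 in BXD31 to 0.34 in BXD14, and it lay above 0 in 9 strains. The type IV mean was 0.13 ± 0.171 (SD), from -0.17 in BXD32 to 0.65 in BXD20, and it lay above 0 in 24 strains. Their difference was 0.22 ± 0.162 (SD), from -0.10 in BXD18 to 0.56 in BXD20. If the deposited ratios ran as reference over strain, type IV would be the higher class in only 3 of 31 strains. No test is given for this difference, because the classes were picked with results of these data known and because the value carries probe and dye effects that are alike on all arrays. With Col15a1 and Col18a1, collagens that also lie in basement membranes and were both called higher, counted with the type IV chains, it was 0.27.

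**Figure D2:**
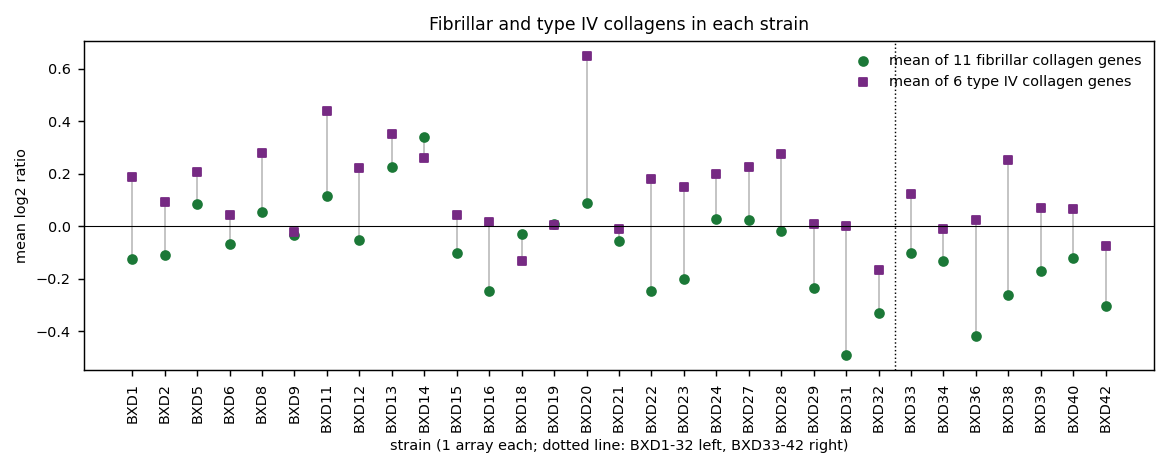
Mean log2 ratio of the 11 fibrillar collagens (green circles) and of the 6 type IV collagens (purple squares) in each of 31 strains, 1 array each, joined by a line; the dotted line parts BXD1-32 from BXD33-42. The square lies above the circle in 28 strains, and the widest gap, 0.56, is that of BXD20.

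Of the 23 other collagens, 5 were higher, 7 lower and 11 did not pass, with a median mean of -0.016. Col18a1, the basement membrane collagen that holds endostatin, had a mean of 0.42 ± 0.096 (limma adjusted p = 3.83e-04) and values from -1.09 in BXD15 through a median of 0.30 to 2.36 in BXD11. It was above 0 in 28 of 31 strains. Col13a1, a transmembrane collagen of cell junctions, had a mean of 0.35 ± 0.049 and was above 0 in 30 strains, all but BXD38 at -0.53. Col15a1, the relative of Col18a1, had a mean of 0.19 ± 0.074. Col23a1, another transmembrane collagen, had one of 0.18 ± 0.073, which did not pass at 0.15 with spot position removed. It was above 0 in 18 strains, and r with the first principal component was -0.748. By array cluster the Col23a1 means ran from -0.13 to 0.63, and the part of this array pattern in the result was not tested. The type IV chains together with Col15a1 and Col18a1 thus held 5 higher, 0 lower and 3 uncalled genes. Both added genes were called higher, while the 10 laminin chains, which lie in the same membranes, had 1 higher and 4 lower. Col7a1, of the anchoring fibrils, was also lower. Among all genes 26.5% were higher and 29.3% lower.

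Col7a1, which forms the anchoring fibrils under the epidermis, had the widest spread of all members, with an SD of 0.850 that exceeded that of 97.7% of genes. Its values ran from -2.32 in BXD42 to 0.44 in BXD31. Its mean was -0.55 ± 0.143 (limma adjusted p = 0.00148), while its median was -0.14, so the mean rests on part of the strains. By array cluster the means were -1.52 in the cluster of 9 arrays, -0.32 in that of 6, 0.19 in that of 4 and -0.053 in that of 10, and r with the first principal component was 0.828; the part of these array patterns in the result was not tested.

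Col25a1, a transmembrane collagen of neurons that is also found in amyloid plaques, had a mean of -0.54 ± 0.078 (limma adjusted p = 5.46e-07) and values from -1.49 in BXD6 through a median of -0.49 to 0.18 in BXD23. Only 3 strains lay above 0. Col8a1, a short-chain collagen of vessel walls and of Descemet's membrane in the eye, had a mean of -0.31 ± 0.087 and ran from -1.37 in BXD39 to 0.96 in BXD38. Col9a3, a chain of the collagen that coats cartilage fibrils, had a mean of -0.22 ± 0.052, with 7 strains above 0. Col6a4, a type VI chain, had the widest spread of these collagens after Col7a1, with an SD of 0.665, and a mean of -0.23 ± 0.113 that did not pass (limma adjusted p = 0.0787). Among the uncalled members, Col16a1 moved from -0.0079 to 0.25 and passed once spot position was taken out, and the called Col8a2 moved from -0.17 to 0.041 and lost its call.

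Of the 10 laminin chains, 1 was higher, 4 were lower and 5 did not pass, with a median mean of -0.053. Lamb1, the beta chain of the most widespread laminins, ranged from -0.27 in BXD1 through a median of 0.33 to 1.06 in BXD21. Its mean was 0.37 ± 0.051 (limma adjusted p = 2.45e-07), with 28 of 31 strains above 0. Among the lower chains were Lama1, the main alpha chain of the embryo and of tubules, with a mean of -0.24 ± 0.054, and Lama5, the alpha chain of the mature glomerular and vascular membranes, with a mean of -0.20 ± 0.067. Lamc3, a gamma chain of restricted expression, had a mean of -0.15 ± 0.059, which fell short of the threshold at -0.092 with spot position removed. Lama2, the alpha chain of muscle and peripheral nerve, had a mean of -0.12 ± 0.044, which did not pass at -0.089 without BXD15 and BXD38.

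Lamb2, the beta chain that replaces Lamb1 in the mature glomerulus, had a mean of -0.054 ± 0.074 and did not pass. The largest spreads among laminins were those of Lamc1, the gamma chain of nearly all laminins, and Lama3, the alpha chain of the skin's basement membrane. Lamc1 had an SD of 0.558 around a mean of -0.015, and ran from -1.67 in BXD29 to 0.81 in BXD42. Lama3 had an SD of 0.467 around a mean of 0.087, and ran from -0.95 in BXD31 to 1.09 in BXD5. Both genes were therefore high in some strains and low in others, with no panel-wide difference past the threshold.

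Of the 15 integrin alpha chains, 3 were higher, 5 were lower and 7 did not pass, with a median mean of 0.0054. The collagen-binding chains Itga1 and Itga2 were both lower. Itga2, which pairs with Itgb1 on epithelia and platelets, ranged from -1.69 in BXD39 through a median of -0.40 to 0.43 in BXD42, with a mean of -0.49 ± 0.083 (limma adjusted p = 6.79e-06) and 4 strains above 0. Itga1, the receptor chain for type IV collagen on smooth muscle and mesangial cells, had a mean of -0.26 ± 0.069 (limma adjusted p = 0.00166), ran from -1.39 in BXD23 to 0.53 in BXD14, and at -0.089 no longer passed with spot position removed. In BXD1-32 alone its mean was -0.16 and also did not pass.

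Itgax, the chain of complement receptor 4 on dendritic cells, had a mean of -0.30 ± 0.061, and Itga9, a receptor chain for tenascin, one of -0.29 ± 0.083. Itga9 reached -2.53 in BXD34, while the next lowest strain lay at -0.74, and with spot position removed its mean was -0.16 and did not pass. The higher chains were Itga2b, Itgav and Itga5. Itga2b, the platelet fibrinogen receptor chain, had a mean of 0.30 ± 0.073. Itgav, the chain that binds the RGD motif of vitronectin and latent TGF-beta, had one of 0.28 ± 0.075. By array cluster, in ascending order, the means were -0.015, 0.094, 0.35 and 0.67 for Itga2b. For Itgav they were 0.059, 0.070, 0.22 and 0.75. The part of these array patterns in both results was not tested. Itga5, the fibronectin receptor chain, had a mean of 0.18 ± 0.064, which did not pass at 0.17 in BXD1-32 alone. The laminin-binding chain Itga6 was lower, at -0.14 ± 0.058, while Itga3, the laminin-binding chain of podocytes, had a mean of 0.036 ± 0.061 and did not pass. Itga8, the nephronectin receptor chain needed for kidney development, had a mean of 0.0054 ± 0.045 and one of the smallest spreads of any member.

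Of the 8 integrin beta chains, 2 were higher, 2 lower and 4 did not pass. Itgb5, a vitronectin receptor chain that pairs with Itgav, had the highest mean of any member, 0.58 ± 0.076 (limma adjusted p = 1.21e-07). Its values ran from -0.77 in BXD15 through a median of 0.55 to 1.20 in BXD16, and 29 of 31 strains lay above 0. Itgb6, the epithelial partner of Itgav, had a mean of 0.18 ± 0.063, which no longer passed at 0.092 with spot position removed. Itgb1, the partner of most matrix-binding alpha chains, had a mean of 0.11 ± 0.054 and did not pass, although 25 of 31 strains lay above 0. Without BXD15 and BXD38 its mean was 0.14 and passed.

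The lower beta chains were also the most variable ones. Itgb2, the leukocyte integrin chain, had a mean of -0.49 ± 0.123 (limma adjusted p = 0.00106), an SD of 0.727, and values from -2.17 in BXD23 to 0.87 in BXD8. Itgb3, the partner of Itga2b on platelets and of Itgav elsewhere, had an SD of 0.839, above that of 97.4% of genes, and a mean of -0.39 ± 0.142 (limma adjusted p = 0.0203) around a median of -0.077. In BXD1-32 alone its mean was -0.24 and did not pass. Its values ran from -2.23 in BXD40 to 0.85 in BXD20, with 13 strains above 0. The array cluster of 6 had an Itgb3 mean of -1.60, against -0.38, 0.084 and 0.034 in those of 9, 4 and 10, and the part of this array pattern in the result was not tested.

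The integrin-binding proteins Itgb1bp1, Itgb1bp2 and Itgb3bp are named for integrin beta chains but are not receptor chains themselves. Itgb1bp1, known as ICAP1, which binds the cytoplasmic tail of Itgb1, was higher at 0.36 ± 0.049 (limma adjusted p = 2.28e-07), with 29 of 31 strains above 0 and values from -0.24 in BXD6 to 0.87 in BXD21. Itgb1bp2, the muscle protein melusin, had a mean of -0.021 ± 0.047 and did not pass. The kinetochore protein gene Itgb3bp had a mean of -0.083 ± 0.065 and did not pass.

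Probes of the same gene did not always tell the same story. For Col11a1, the first probe had a mean of 0.18 ± 0.062 (limma adjusted p = 0.0120) and the second a mean of -0.62 ± 0.082 (limma adjusted p = 1.28e-07), with r = 0.173 between them over strains. These p-values were adjusted over all 23040 probes, of which 57.5% passed. For Itgav, the second probe had a mean of 1.12 ± 0.165, was above 0 in 30 of 31 strains and reached 4.09. The first Itgav probe had a mean of -0.16 ± 0.057 (limma adjusted p = 0.0148) and the third one of -0.13 ± 0.078, which did not pass. The higher mean of Itgav given above therefore comes from 1 of its 3 probes, and correlations among the 3 ran from -0.048 to 0.484.

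Both Lama1 probes were lower, at -0.14 ± 0.059 and -0.33 ± 0.082, with r = 0.070 between them. The 3 probes of Lama3 had means of 0.17, -0.0029 and 0.089, and the second had a spread of 1.12 (SD), over 2 times that of either of the others at 0.509 and 0.338. Of the 3 probes of Col6a3, a type VI chain, only the second passed, at 0.16 ± 0.052. The probes of Col14a1, a fibril-associated collagen, had means of 0.17 and -0.0064, and those of Itgb2l, a relative of Itgb2, -0.038 and 0.073, none of which passed. With the probe of largest spread in place of the mean, the counts stayed at 17 higher and 22 lower members.

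**Figure D3:**
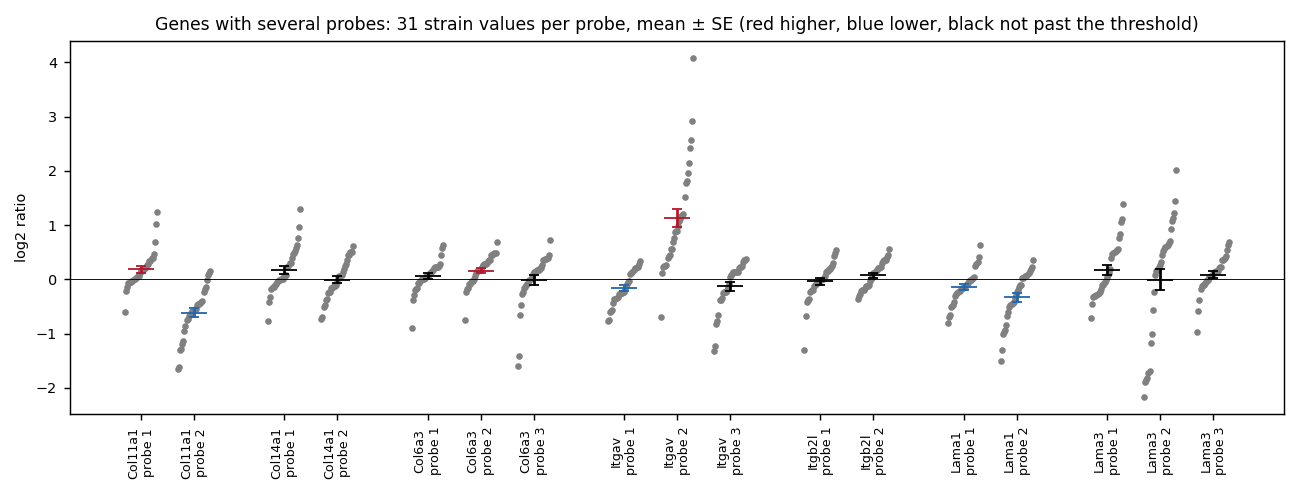
Log2 ratios of 31 strains (grey points, in ascending order) for each probe of the 7 members with several probes, with the mean and its standard error; red means are higher and blue means lower than the reference at an adjusted p under 0.05 (limma over all probes), black means did not pass. The first and second Col11a1 probes lie on opposite sides of 0, at 0.18 and -0.62, as do the second and first Itgav probes, at 1.12 and -0.16.

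Chains that assemble into 1 trimer or heterodimer, or into 1 fibril, were next compared over strains. Of 62 listed partner pairs, 56 had both genes measured. Pearson's r of at least 0.5 was found for 2 of the 56 (3.57%), for 3.75% of the 2850 pairs of members and for 2.88% of all gene pairs, so partners did not stand out as a group. The 56 values of r had a median of 0.098 and ran from -0.464 to 0.614.

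The pairs past the threshold of a 2-sided permutation test with Benjamini-Hochberg adjustment over the 56 pairs were Col1a1 with Col3a1, and Col6a2 with Col6a3. Type I and type III collagen lie in shared fibrils of skin, vessels and interstitium. For Col1a1 and Col3a1, r was 0.614 and rho 0.609 (permutation p = 0.00031, adjusted p = 0.0174). Without BXD11 and BXD36, the strains farthest from the median of Col1a1, r was 0.510 and did not pass (permutation test, adjusted p = 0.131). Within the array clusters of 6, 9 and 10 arrays r was 0.110, 0.439 and 0.130, and with the first principal component removed it was 0.121. The value was lower within each of those clusters than over the panel, and both genes followed the first component, with r = 0.756 for Col1a1 and r = 0.742 for Col3a1.

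Type VI collagen is a beaded microfibril of 3 different chains. For its chains Col6a2 and Col6a3, r was 0.589 and rho 0.680 (permutation p = 8.60e-04, adjusted p = 0.0241), and r was 0.663 without BXD1 and BXD38. Within the array clusters of 6, 9 and 10 arrays r was 0.388, 0.740 and 0.341, and with the first component removed 0.496 (permutation test, adjusted p = 0.178). With the most variable Col6a3 probe alone r was 0.372 and did not pass. The third chain, Col6a1, whose gene adjoins Col6a2 on chromosome 10, had r = 0.106 with it. Col5a2 with Col5a3, and Lama3 with Lamb3, the chains of the skin laminin, had negative r of -0.464 and -0.463, neither past the threshold (permutation test, adjusted p = 0.0956 for both). With spot position removed both passed, at -0.529 and -0.530 (permutation test, adjusted p = 0.0441 for both), and both passed without BXD15 and BXD38 (adjusted p = 0.0486). By ranks, Col5a2 with Col5a3 passed at rho = -0.547 (permutation test, adjusted p = 0.0224). With the first component removed, r was -0.047 for Col5a2 with Col5a3 and -0.297 for Lama3 with Lamb3, and neither passed. Within the array clusters of 6, 9 and 10 arrays, Col5a2 with Col5a3 had r of -0.625, 0.018 and -0.040. Lama3 with Lamb3 had -0.970, -0.152 and 0.689 within them, so neither pair kept its negative r in every cluster. Spot position removal also ended the calls of Col1a1 with Col3a1 (r = 0.462) and of Col6a2 with Col6a3 (r = 0.387).

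For 22 of 76 members (28.9%), r with the first principal component was at least 0.5 in size, beside 28.4% of all genes. Removing that component left 1.51% of member pairs and 1.56% of all gene pairs at an r of at least 0.5. Neighbouring members in the genome had correlations from -0.364 to 0.498. These were 0.224 for Col4a3 and Col4a4 on chromosome 1, 0.238 for Col4a5 and Col4a6 on chromosome X, and -0.364 for Col3a1 and Col5a2 on chromosome 1. On the other chromosomes they were -0.089 for Itga1 and Itga2 on chromosome 13 and 0.059 for Itgam and Itgax on chromosome 7, and the value was 0.033 for Col9a1 and Col19a1 on chromosome 1. Among the 8 neighbouring pairs, that of Col4a1 and Col4a2 had the highest value.

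The most alike members were no listed partners and were picked after their values were seen, so they are given with no test. Col3a1 and Itga1, a fibrillar collagen and a collagen receptor chain, had r = 0.865 and rho = 0.787. Within the array clusters of 6, 9 and 10 arrays r was 0.846, 0.899 and 0.850, and with the first component removed 0.769. Both genes had their highest value in BXD14, and their spots lie 6759 places apart in the array's order. Their RefSeq promoters (GRCm38.p6), the 250 bases before each start, are shown because these genes moved together. Capitals mark matches on either strand to the CAAT box CCAAT, to the GC box core, spelled GGGCGG, or to the TATA box, spelled TATAAA. The windows lie at chr1:45311288-45311537 on the plus strand for Col3a1 and chr13:115101965-115102214 on the minus strand for Itga1.
Col3a1 promoter: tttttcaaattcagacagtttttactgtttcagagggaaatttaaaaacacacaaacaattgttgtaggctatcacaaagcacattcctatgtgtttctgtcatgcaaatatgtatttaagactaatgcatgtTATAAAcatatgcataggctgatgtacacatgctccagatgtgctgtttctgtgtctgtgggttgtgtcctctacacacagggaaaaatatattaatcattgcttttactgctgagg
Itga1 promoter: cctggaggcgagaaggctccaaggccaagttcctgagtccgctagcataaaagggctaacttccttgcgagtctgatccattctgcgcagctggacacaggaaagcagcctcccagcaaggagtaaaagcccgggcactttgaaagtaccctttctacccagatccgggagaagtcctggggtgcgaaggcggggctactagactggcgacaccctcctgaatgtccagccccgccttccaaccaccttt
The Col3a1 window holds 1 TATAAA and is 35.2% G and C, while the Itga1 window holds none of these motifs and is 57.6% G and C. Of 32851 promoter windows of this length in the table, 12.4% hold TATAAA, 33.8% hold CCAAT and 32.7% hold GGGCGG. Of the 76 members, 54 had a promoter in the table. Of these genes, 5 hold TATAAA, 16 hold CCAAT and 27 hold GGGCGG in at least 1 window. These are counts of genes, which can have several windows, while the shares above are of single windows, so they cannot be compared directly.

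The promoters of the co-varying type VI chains are shown in the same way, the first of 2 listed Col6a2 starts at chr10:76623405-76623654 and Col6a3 at chr1:90843972-90844221, both on the minus strand.
Col6a2 promoter: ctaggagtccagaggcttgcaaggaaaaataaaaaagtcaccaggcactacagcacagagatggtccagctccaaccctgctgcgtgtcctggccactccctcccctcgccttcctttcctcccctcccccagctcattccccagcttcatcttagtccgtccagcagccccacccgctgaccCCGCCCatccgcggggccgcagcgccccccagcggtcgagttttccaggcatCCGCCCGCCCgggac
Col6a3 promoter: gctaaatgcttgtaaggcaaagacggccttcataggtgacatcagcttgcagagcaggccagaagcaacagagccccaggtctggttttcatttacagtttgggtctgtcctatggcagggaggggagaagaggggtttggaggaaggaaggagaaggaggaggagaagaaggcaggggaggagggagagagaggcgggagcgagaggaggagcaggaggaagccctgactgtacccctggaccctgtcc
The Col6a2 window holds 3 matches to GGGCGG, all on the other strand and the last 2 overlapping, and is 64.4% G and C. The Col6a3 window holds none of the 3 motifs and is 57.2% G and C. A match describes the letters and is not evidence of a site.

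Other pairs picked for their correlation were Col4a4 with Itgav, at r = 0.826 (0.593 with the first component removed), and Itga1 with Itgb2, at r = 0.688. The latter spots lie 9 places apart, a distance at which 4.29% of all spot pairs had an r of at least 0.5, beside 12.6% of adjacent spots. The Itgav values paired with Col4a4 average 3 probes, whose correlations with each other ran from -0.048 to 0.484. Col11a1 with Itgb2l had r = 0.715, and a probe of each lies 2 spots from the other, with r = 0.524 between those probes. At that distance 10.04% of all spot pairs had an r of at least 0.5. The strongest negative pair was Col4a6 with Col2a1, at r = -0.739, and at -0.945, -0.691 and -0.829 within the array clusters of 6, 9 and 10 arrays. High Col4a6 thus went with low Col2a1 in each of these clusters; BXD22 held the highest Col4a6 and the lowest Col2a1 value.

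**Figure D4:**
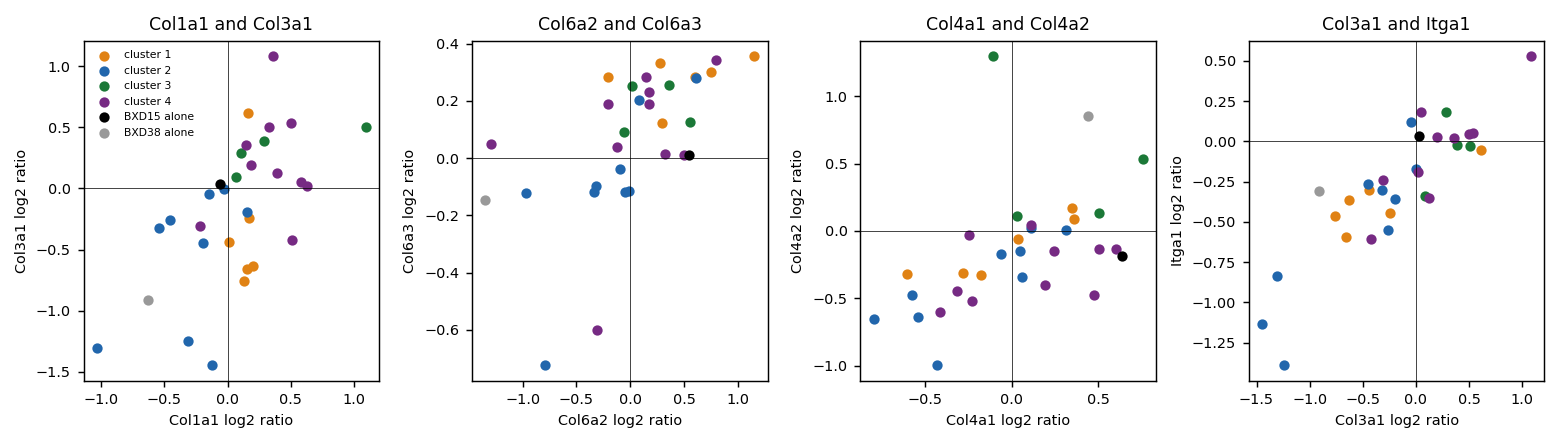
Log2 ratios of 31 strains for 4 pairs of members, coloured by array cluster; each point is 1 strain. Pearson's r is 0.614 for Col1a1 and Col3a1, 0.589 for Col6a2 and Col6a3, and 0.498 for Col4a1 and Col4a2, with BXD8 at the top. It is 0.865 for Col3a1 and Itga1, a pair picked after its value was seen.

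Between the breeding sets, no member passed limma's test after adjustment, with a smallest adjusted p of 0.128, and 1 gene of 15096 did (0.00662%), which is Sema6a and no member. At an unadjusted p under 0.05, 14 members were lower and 2 higher in BXD33-42, together 16 of 76 (21.1%), beside 12.9% of all genes (7.47% lower and 5.43% higher). With spot position removed the count was 7 members, beside 9.59% of all genes. With the first principal component as a covariate it was 9 members, beside 11.1%. The members' median difference was -0.090, beside -0.018 for all genes.

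Col6a4 had the smallest p. Its BXD33-42 values ran from -0.20 in BXD42 through a median of 0.32 to 1.30 in BXD34, and its BXD1-32 values from -1.62 in BXD2 through a median of -0.47 to 0.58 in BXD31, so the sets overlapped. The difference was 0.97 ± 0.218 (SE, limma p = 9.30e-05, adjusted p = 0.128). Within the array clusters that held both sets it was 0.47 (3 BXD33-42 against 3 BXD1-32 arrays), 0.21 (2 against 7) and 0.90 (1 against 9). With array weights it was 1.09 and passed.

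Col3a1 was below 0 in all 7 strains of BXD33-42, from -1.45 in BXD42 through a median of -0.66 to -0.24 in BXD34. In BXD1-32 it ran from -1.25 in BXD23 through a median of 0.043 to 1.08 in BXD14. The difference was -0.84 ± 0.199 (limma p = 1.86e-04, adjusted p = 0.128), and within the same 3 array clusters it was -0.32, -1.02 and -0.71. Itgb1 differed by -0.36 ± 0.116 (limma adjusted p = 0.174), and by -0.023, -0.37 and -1.01 within those clusters. Itga1, the chain most alike to Col3a1, differed by -0.45 ± 0.148 (limma adjusted p = 0.183), and by -0.19, -0.57 and -0.61 within them. All 7 strains of BXD33-42 lay below 0 for Itga1 too, from -1.13 in BXD42 to -0.31 in BXD38.

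Means of cell type markers in the breeding sets are given as a description with no test, and the strain ranges of the sets overlapped. Smooth muscle and pericyte markers had a mean of -0.26 in BXD33-42 (strains from -0.43 to -0.099) and -0.083 in BXD1-32 (-0.25 to 0.092), and fibroblast markers -0.16 (-0.29 to -0.084) and -0.026 (-0.22 to 0.29). Proximal tubule markers had -0.13 (-0.90 to 0.25) and 0.36 (-0.26 to 1.45), endothelial markers 0.041 and 0.19, and macrophage markers 0.13 and 0.089. Podocyte markers had -0.041 and 0.019, platelet markers 0.074 and -0.023, lymphocyte markers -0.102 and -0.135, and collecting duct markers 0.081 and 0.063. Their part in the differences of members was not tested.

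**Figure D5:**
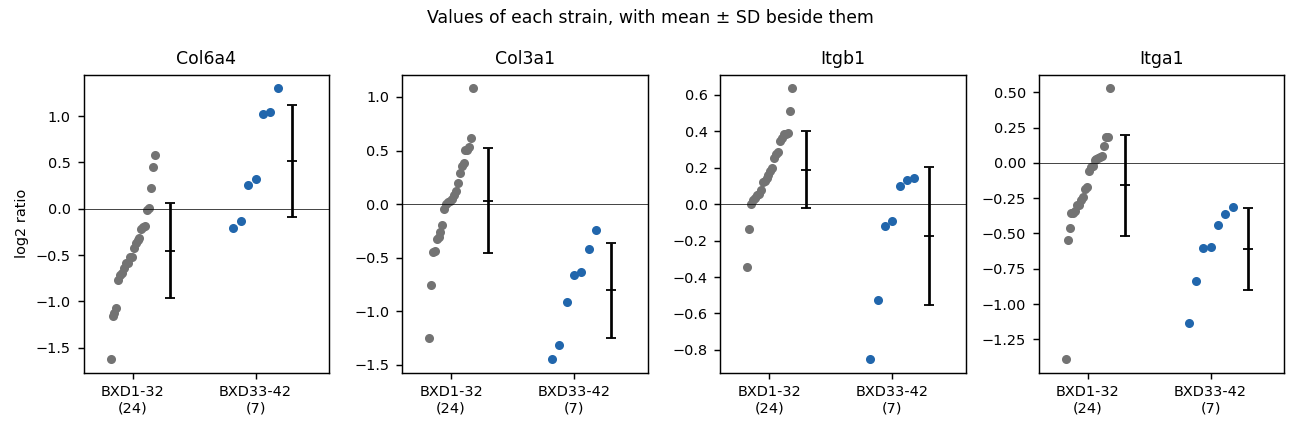
Log2 ratios of each strain in BXD1-32 (24 strains, grey) and BXD33-42 (7 strains, blue) for Col6a4, Col3a1, Itgb1 and Itga1, with mean ± SD beside the points. All 7 BXD33-42 strains lie below 0 for Col3a1 and Itga1, and the sets overlap for all 4 genes, none of which passed after adjustment.

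Genes that build and read the matrix were counted from lists, beside 26.5% higher and 29.3% lower among all genes. Of 10 basement membrane partners, 5 were higher and 2 lower. They included the dystroglycan gene Dag1 at 0.57 and the perlecan gene Hspg2 at 0.28, while the nidogen gene Nid1 was at -0.34 and the nephronectin gene Npnt at -0.32. Of 14 partners in interstitial matrix, 4 were higher and 2 lower, with the small proteoglycans Bgn and Fmod at 0.36 and 0.20, the fibrillin gene Fbn2 at -0.35 and the proteoglycan Lum at -0.13. These differences in the mean log2 ratio ran both ways within each list.

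Of 18 enzymes and chaperones of collagen synthesis, 7 were higher and 4 lower. P4hb, a subunit of prolyl 4-hydroxylase, had a mean of 0.66 and Adamts3, a procollagen N-proteinase, one of 0.64. All 4 lower genes were members of the lysyl oxidase family, which cross-links collagen, with Loxl2 at -0.33 and Loxl3 at -0.29. Lox itself was at 0.020 and did not pass. Of 17 matrix proteases and inhibitors, 6 were higher and 3 lower, with the metalloproteinase inhibitors Timp3 at 0.80 and Timp2 at 0.24, and the metalloproteinases Mmp16 at -0.33 and Mmp12 at -0.28.

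Of 9 matrix receptors outside the integrin family, 3 were higher and 2 lower. The collagen receptor kinases Ddr1 and Ddr2 were the lower ones, at -0.35 and -0.31, while the syndecan Sdc4 was at 0.45 and Rpsa, the laminin receptor and ribosomal protein, at 0.44. Of 16 adaptors on the inner side of integrins, 5 were higher and 3 lower. The kinase gene Src had a mean of 1.17, its substrate Bcar1 one of 0.33, the parvin gene Parva one of -0.48 and the filamin gene Flna one of -0.30.

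Markers of cell types gave the following counts of higher and lower genes, beside 26.5% higher and 29.3% lower among all genes. The lists are short, and the counts are a description with no test. Podocyte markers had 3 higher and 2 lower of 8, endothelial markers 3 and 1 of 11, smooth muscle and pericyte markers 0 and 4 of 9, and fibroblast markers 2 and 2 of 11. Macrophage markers had 3 and 0 of 10, lymphocyte markers 1 and 3 of 8, platelet markers 1 and 2 of 7, and cartilage markers 2 and 2 of 8. Proximal tubule markers had 5 and 1 of 11, collecting duct markers 4 and 2 of 8, neuron markers 4 and 4 of 10, and glial markers 2 and 2 of 9. The called cartilage markers were the aggrecan gene Acan at 0.36, Matn3 at 0.20, the transcription factor gene Sox9 at -0.62 and Chad at -0.76. This list was picked out after its values were seen.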

How the data were processed

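The authors' deposited values, 1 column for each of 31 arrays, are treated as log2 ratios of strain over reference. Base, direction and steps are not given in the sources used here; the submitters' processing notes name R 2.0.0 and limma. Sorted values were identical in all 31 columns (median 0.0127, SD 0.602, range -4.07 to 4.95), so the arrays had been quantile normalized. Signal over background is unknown, and the number of arrays limits the precision. No gene name was given for 6032 probes and several for 134. All 76 members matched RefSeq by symbol. Members, classes, pairs and lists were chosen with earlier results of these data known.

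Probes were averaged per gene and fitted with limma 3.58.1 in R 4.3.3 (lmFit, eBayes, 2-sided), for the mean against 0 and for BXD33-42 minus BXD1-32, with Benjamini-Hochberg adjustment over 15096 genes at 0.05. Pairs had 100000 permutations. Scripts were tested on simulated data. Array clusters came from average linkage on 1 minus r, cut into 6. Named were all fibrillar and type IV collagens. In each other class, up to 4 highest and 4 lowest called means and the 2 largest SDs were eligible, with further members named for their role. Also named were the 3 smallest p between sets, called pairs, genes with probes called in opposite directions, and up to 2 highest and 2 lowest called genes of a list. Alternatives were centring, spot position, probe choice, arrays left out, array weights, robust eBayes, low-spread genes, treat, single probes, breeding set, principal component and rank correlation; array clusters as covariate or removed, BXD33-42 alone and pairs without the 2 farthest arrays were added after seeing the data.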

Additional observations from a re-analysis of the deposited data

Results flagged for a closer look

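In the 7 strains of BXD33-42, 5 of 76 members had 1 strain far from the others, by a gap whose share of the whole range exceeded Dixon's critical value. Chance flags about 1 in 20 such groups, so 5 of 76 is near that rate. Col11a1, a cartilage collagen chain, was at 0.66 in BXD42, while the other 6 strains lay between -0.83 and -0.20. Itga9, a tenascin receptor chain, was at -2.53 in BXD34, with the others between -0.64 and 0.15. Itgav, the RGD-binding chain, was at -0.75 in BXD38, an array that stands apart from the other arrays, with the others between -0.042 and 0.38. Itgb1bp2, the gene of melusin, was at -0.60 in BXD33, with the others between -0.081 and 0.23. Lama4, a laminin chain of vessels, was at 1.04 in BXD40, with the others between -0.76 and -0.12.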

How the results depend on the processing

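The count of 17 higher and 22 lower members stayed within 1.5 times under centring, spot position removal, probe choice, leaving out BXD15 and BXD38, array weights, robust eBayes, removal of low-spread genes, single probes and BXD1-32 alone. With treat at a log2 change of 0.2, 5 members were higher and 3 lower (10.5% of members, 17.2% of all genes), with 1 fibrillar collagen higher, 1 lower and 0 type IV collagens higher. In BXD33-42 alone, with 7 arrays, 3 members were higher and 8 lower (14.5% of members, 11.4% of all genes), with 0 fibrillar collagens higher, 2 lower and 0 type IV collagens higher. Direction turned with spot position removed for Col2a1 (0.038), Col8a2 (0.041) and Col16a1 (0.25), and in BXD33-42 alone for Itgav (-0.0077) and Itgb6 (-0.052); the cause was not tested. In BXD1-32 alone, 7 called members no longer passed, which were Itga1, Itga5, Itgb3, Lama2, Lamc3, Col10a1 and Col26a1. Spot position in the repeat of 480 held 36.7% of the variance of the mean. Type IV minus fibrillar collagens ran from 0.20 to 0.27 over its alternatives. Between the sets, array weights gave 1 member past the threshold (Col6a4) and 54 genes in all, against 0 and 1. Of 56 pairs, 2 passed, against 6 by Spearman, 7 without BXD15 and BXD38, 1 with the most variable probe, 1 without the 2 farthest arrays, and 0 with the first principal component removed, with cluster means removed or in BXD1-32 alone. With spot position removed 3 passed, which were Col5a1 with Col5a2 (r = 0.552), Col5a2 with Col5a3 and Lama3 with Lamb3, and neither of the original 2 did. No paired analysis was possible because each strain number belongs to 1 array. Signal over background is unknown, so dim probes could not be told from bright ones.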

Other observations

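BXD6 and BXD38 each held the lowest value of the panel for 8 of 76 members (10.5%), beside 5.33% and 7.98% of all genes. BXD14, BXD21 and BXD38 each held the highest value for 6 members (7.89%), beside 3.19%, 5.45% and 7.05% of all genes. In BXD14 these include the fibrillar collagens Col1a2 and Col3a1 and the receptor chains Itga1, Itga7 and Itga9. BXD20 had the highest values of Col4a4, Itgav, Itga2b and Itgb3. These counts describe the panel and were not tested.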
